A study of Mus musculus with 10 samples.

Results

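Vestibular cells with transcripts of Slc7a11, which encodes the cystine/glutamate exchanger, and of Rbp4, which encodes the plasma retinol carrier, were examined in the vestibular organs of old mice. A cell was counted as a member when it had a unique molecular identifier (UMI, a tag that counts a transcript molecule once) in at least 3 of the 6 genes Slc7a11, Rbp4, Slc13a4, Colec12, Pdgfra and Aebp1, and in fewer than 3 of the 6 hair cell (HC) genes Myo6, Myo7a, Pou4f3, Tmc1, Kncn and Gfi1. Of 10424 vestibular cells that passed the filters on cells, 2160 were members (20.7%), out of 17696 such cells in both organs. The members numbered 151, 1150, 538 and 321 in replicates 1, 3, 4 and 5, which was 17.4%, 21.1%, 22.0% and 19.2% of the cells of each library. The 6 genes that chose the members are described without a test.

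All libraries came from wild-type CBA/J mice, which the labels give as 22 months old and the study's methods as males and females, with 7 to 8 mice pooled in each library. The group thus holds no single animal, and no library of young mice was analysed here. The cochlea and the vestibular organs were dissected separately, digested with collagenase IV and captured by a droplet method that counts transcript 3′ ends. The labels name the vestibular tissue sensory epithelium, while the protocol states that whole organs were dissected, and Epcam, a marker of epithelium, had 6.63 to 105 CPM (UMIs in every 1000000 of the library's members) in the members against a mean of 826 CPM in the other vestibular cells.

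The 10 libraries held 1130 to 12397 barcodes, and 549 to 5438 of them passed the minimum of 200 genes and 1000 UMIs with a mitochondrial share of UMIs under 25%. Replicate 2 of each organ repeated replicate 1: of 1641 barcodes in vestibule replicate 2, 1633 were in replicate 1, and the counts of their shared cells differed by less than the sampling noise, so the pair was counted as 1 sample and replicate 1 was used. No 2 other libraries had more than 41 barcodes in common, and no member barcode was shared among the 4 vestibular libraries used. The members had a median of 2997, 2139, 1974.5 and 2310 UMIs in replicates 1, 3, 4 and 5, and a median mitochondrial share of 3.74%, 7.37%, 2.49% and 3.67%. Replicate 3 thus held the most members and had the highest mitochondrial share.

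The vestibular organs rest on connective tissue whose fibroblasts and fibrocytes carry out ion recycling and build the extracellular matrix under the sensory epithelium and around the membranous labyrinth. Fibroblasts at fluid barriers, such as those of the meninges, are known for solute carriers that move organic anions, dicarboxylates, sulfate and amino acids, and for retinoid synthesis. SLC7A11 pairs with SLC3A2 to bring cystine into the cell for glutathione synthesis, and RBP4 carries retinol between cells.

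Among the genes of the rule, Rbp4 was the most abundant in the members. Rbp4 (chromosome 19, 38116629 to 38125281, minus strand, GRCm38) had 1152, 1237, 1733 and 1369 CPM in replicates 1, 3, 4 and 5, and Slc7a11 (chromosome 3, 49892526 to 50443614, minus strand) had 507, 727, 683 and 604 CPM. Slc13a4, a sulfate transporter gene, had 530, 524, 675 and 577 CPM. The values of these 3 genes lay within a narrow range over the libraries. Pdgfra, the platelet-derived growth factor receptor of mesenchymal cells, had 603, 627, 467 and 512 CPM. Aebp1, which encodes a collagen-binding matrix protein, had 600, 687, 862 and 631 CPM, and Colec12, a scavenger receptor gene, had 406, 369, 533 and 476 CPM. Colec12 was also found in cells with macrophage markers, at 234 CPM, whereas Slc7a11 and Rbp4 both had 31.7 CPM there.

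Igf2, insulin-like growth factor 2, was named as a marker of these cells but took no part in the rule. It had 151, 225, 287 and 261 CPM in the members of replicates 1, 3, 4 and 5 and a mean of 20.6 CPM in the other vestibular cells. A UMI of Igf2 was found in 24.5% to 32.7% of the members of a library, against 76.8% to 82.9% for Rbp4 and 51.7% to 60.3% for Slc7a11.

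**Figure D1:**
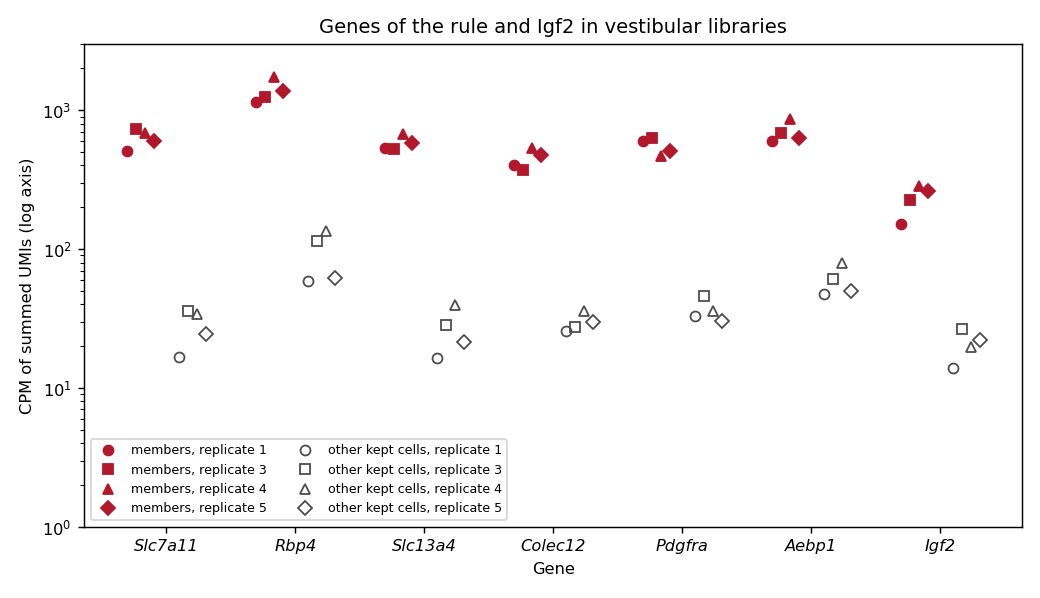
CPM of summed UMIs (log axis) of the 6 genes of the rule and Igf2 in members (filled) and other kept cells (open) of vestibule replicates 1, 3, 4 and 5, with 1 point per library and no error bars. The members' points for Slc7a11 lie between 507 and 727 CPM and those for Igf2 between 151 and 287 CPM, and every members' point lies above the points of the other cells for the same gene.

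Of the members, 773 had a UMI in 3 of the 6 genes, 669 in 4, 430 in 5 and 288 in all 6. Just outside the rule were 1031 vestibular cells with a UMI in 2 of the 6 genes, and 57 cells met the rule but were set aside for their HC genes. In replicate 3, the cells with 2 of the 6 genes had 105 CPM of Igf2 and 663 CPM of Dcn (decorin, a matrix proteoglycan), those with 3 had 167 and 1221 CPM, and those with 4 or more had 254 and 1541 CPM. Their median UMIs were 1647, 1726.5 and 2406. The other libraries were not all graded in this way: in replicate 5 the medians were 1846, 1743.5 and 2564 UMIs, and Dcn had 990, 1813 and 1730 CPM there and 557, 1627 and 1041 CPM in replicate 1.

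The promoter of Slc7a11 is shown because that gene named the cells. The sequence is that of RefSeq on GRCm38.p6, 250 bases before to 50 after the annotated start, at chr3:50443564-50443863 on the minus strand. Capitals mark TGATGCAA, the core of the amino acid response element, searched on both strands.
Slc7a11: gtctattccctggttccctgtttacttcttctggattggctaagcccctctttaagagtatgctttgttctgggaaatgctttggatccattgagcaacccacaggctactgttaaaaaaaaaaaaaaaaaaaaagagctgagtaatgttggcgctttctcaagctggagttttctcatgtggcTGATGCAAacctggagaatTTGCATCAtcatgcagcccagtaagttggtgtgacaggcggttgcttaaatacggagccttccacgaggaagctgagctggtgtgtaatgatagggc
It held 2 matches, 1 on each strand, which do not overlap. The motif was in 294 of 32851 promoters in the table (0.895%) and in none of those listed for Rbp4, Slc13a4, Igf2, Pdgfra and Aebp1. A match describes letters only, and binding was not measured.

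The members were checked against markers of other cell types. The fibrocyte class holds Coch, Otos, Otor, Car3, Slc4a11 and Cldn11. Of 2160 members, 1592 (73.7%) had a UMI in at least 3 of these 6, as did 2434 other vestibular cells. The summed level of the 6 was 21966 to 27404 CPM in the members against 2816 to 4616 CPM in the other cells. The markers were not all widespread: in the members Coch alone had 15540 to 18822 CPM, and Slc4a11 had 6.81 to 9.95 CPM. The members therefore cannot be told apart from cochlin-rich fibrocytes by these markers, and mesenchymal describes them only broadly. The other 12 marker classes were each met by at most 24 members, the most by the macrophage class. Cartilage markers summed to 2165 to 3260 CPM in the members against 276 to 581 CPM in the other cells. Nearly all of the members' sum was 1 gene, Ucma, at 2109 to 3220 CPM. Cnmd, another cartilage marker, had a mean of 27.3 CPM in the members and 50.9 CPM in the other cells, and 4 members met the cartilage class. Endothelial markers summed to 77.1 to 118 against 13.5 to 31.7 CPM. Mural cell markers summed to 1.66 to 12.4 CPM in the members, and granulocyte markers to 225 to 3448 CPM against 2916 to 49490 CPM in the other cells.

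Genes of fibrillar collagen differed in level. Col1a1, the type I collagen alpha 1 chain, had 0, 3.85, 2.27 and 5.72 CPM in replicates 1, 3, 4 and 5, and Col3a1, the type III chain, 7.56 to 21.5 CPM. Col1a2 had 149 to 179 CPM and was at least 7.45 times the level of other cells in each library. Slc47a1, a marker of barrier fibroblasts, had 4 UMIs in all members.

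Prostaglandin D synthase dominated the members' RNA. Ptgds had 126339, 129285, 143186 and 123004 CPM in replicates 1, 3, 4 and 5, or 12.3% to 14.3% of all UMIs, against a mean of 21538 CPM in the other vestibular cells and 4226 CPM in the macrophage class. Outside mitochondrial genes, the noncoding Malat1 was next by mean, at 61171 CPM, and Gm42418 varied from 3068 to 37017 CPM over the libraries. Coch, cochlin, had 15540 to 18822 CPM, and Apod, apolipoprotein D, had 13858 to 18899 CPM. The means of Coch and Apod, 16878 and 16075 CPM, differed by less than their spread. Apoe had a mean of 14128 CPM in the members and 23798 CPM in the macrophage class, so it was not highest in the members. These levels are UMIs of 3′ ends, which are not divided by transcript length.

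The 25 genes whose lowest ratio to other vestibular cells over the 4 libraries was largest, among genes with a mean of at least 100 CPM, are given as a description, because the same cells chose them. The 25 include the 6 genes of the rule and Igf2. Solute carriers besides Slc7a11 and Slc13a4 made up 4 of them. Slc22a2, an organic cation transporter gene, had 39.8, 92.1, 157 and 115 CPM in replicates 1, 3, 4 and 5 and was at least 18.3 times the level of other cells in each library. Slco1a4, an organic anion transporter gene, had 92.8 to 129 CPM with a lowest ratio of 17.8. Slc13a3, a dicarboxylate carrier gene, had 91.5 to 164 CPM, and Slc6a13, a GABA and taurine carrier gene, 91.2 to 163 CPM. Replicate 1 was lowest for Slc22a2 and highest for Slc13a3.

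Several others encode secreted or matrix proteins. Vtn, vitronectin, led all genes with a lowest ratio of 21.6 and 92.8 to 134 CPM. Lum, the proteoglycan lumican, had 121, 171, 241 and 209 CPM, and Dcn had 1207, 1435, 1614 and 1759 CPM. Itih5, which encodes a hyaluronan-binding protein, was the most abundant of the 25 at 1743 to 2175 CPM. The binding proteins Igfbp2 and Igfbp4 were at 532 to 918 and 400 to 627 CPM, both highest in replicate 1, in which Igf2 was lowest. Cxcl12, a chemokine gene, had 249 to 332 CPM, and Cemip, a hyaluronan-degrading factor gene, 350 to 570 CPM.

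Aldh1a2, the main retinoic acid synthesis enzyme of mesenchyme, had 247, 181, 213 and 279 CPM in the members and at least 9.66 times the level of other cells. Stra6, the RBP4 receptor, had 1.51 to 4.97 CPM and Cyp26b1, which degrades retinoic acid, 0.95 to 6.52 CPM. The synthesis enzyme was thus present, and the receptor and the degrading enzyme were near 0. The transcription factors Zic1 (112 to 191 CPM) and Zic5 (109 to 167 CPM), which act in neural crest and meningeal development, were among the 25 with Pdgfrb, Ranbp3l and Sorcs3.

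For cystine uptake, Slc3a2, the partner chain of SLC7A11, had 204, 243, 191 and 152 CPM. The glutathione synthesis genes Gclc (4.97 to 11.6 CPM), Gclm (13.3 to 25.7 CPM) and Gss (4.97 to 6.05 CPM) were all lower in the members than in the other vestibular cells, whose means were 52.7, 67.6 and 13.4 CPM. Gpx4, which removes lipid peroxides, had 563 to 656 CPM in the members and a mean of 818 CPM in other cells. These differences rest on cells chosen in part by Slc7a11.

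Cd79a, the B cell receptor alpha chain, had 338, 181, 265 and 194 CPM in the members and a mean of 64.4 CPM in the other cells. Its B cell partners were near 0, with 24 UMIs of Cd79b and 9 of Ms4a1 in 6350789 UMIs of all members, and 6 members met the B lineage class. The Cd79a UMIs numbered 1369.

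When all vestibular cells were clustered, the members did not form 1 cluster. Of 28 clusters, 5 held 1996 members (92.4%). A cluster of 966 cells led by Slc7a11, Vtn and Lama1 consisted of members to 93.2% and held 900 of them. A cluster of 358 cells led by Lum, Slc22a2, Igf2, Rbp4 and Dcn held 261. Another 442 lay in a cluster of 944 cells led by Cacna1e, Coch and Otor, 274 in a cluster led by Ttr, Gm525 and Otos, and 119 in a cluster led by Cavin2, Ccl11 and Emilin2. The members were then clustered alone, which gave 9 subclusters, numbered by size and named here by their leading genes only, because the same cells define and describe them.

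Slc7a11 and Rbp4 peaked in different subclusters. Subcluster 1 (596 cells, led by Lama1, Vtn and Slc7a11) had 793, 1780, 1356 and 1330 CPM of Slc7a11 in replicates 1, 3, 4 and 5, and subcluster 4 (221 cells, led by Lum, Slc22a2 and Stxbp6) had 108, 104, 110 and 61.4 CPM. For Rbp4 the order was the opposite, with 1506, 1608, 1639 and 1792 CPM in subcluster 1 and 4883, 4513, 4023 and 3155 CPM in subcluster 4. The values of these 2 subclusters did not overlap for either gene, which is a description, because the same cells define the subclusters. Igf2 was at 136 to 235 CPM in subcluster 1 and 688 to 802 CPM in subcluster 4, and Lum at 72.0 to 77.7 and 968 to 1475 CPM.

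Other genes separated the same subclusters. Lama1, the laminin alpha 1 chain of basement membranes, had a mean of 234 CPM in subcluster 1 and 57.7 CPM in subcluster 4, and Vtn 234 and 58.0 CPM. Dcn had 732 and 4152 CPM, and Slc22a2 60.5 and 595 CPM. Coch was at 21944 CPM in subcluster 1 and 8466 CPM in subcluster 4, and Zic1 at 232 and 15.6 CPM. Slc13a4 (886 and 709 CPM) and Ptgds (158860 and 228237 CPM) were abundant in both. The median depth was similar, 2314 and 2484 UMIs. Subcluster 4 had a match of 217 cells at the finer resolution 1 that held 96.8% of it, whereas the best match of subcluster 1 held 55.9%.

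Within single members, Lum was found less often with Slc7a11 than without it. In replicates 1, 3, 4 and 5, 9.09%, 9.24%, 9.18% and 14.5% of members with a Slc7a11 UMI had a Lum UMI, against 20.6%, 20.1%, 29.1% and 26.5% of those without. Of members with an Rbp4 UMI, 15.5%, 15.2%, 20.6% and 22.6% had Lum, against 8.57%, 7.47%, 6.52% and 12.3% without. Lama1 went with Slc7a11: 31.8%, 18.5%, 26.5% and 30.1% of members with Slc7a11 had Lama1, against 15.9%, 8.53%, 11.1% and 7.74% without. The direction was the same in each library for each of these 3 pairs. Rbp4 itself was found in 84.1%, 77.8%, 81.0% and 76.5% of members with Slc7a11 in replicates 1, 3, 4 and 5. The shares without Slc7a11 were 66.7%, 81.0%, 85.2% and 78.1%, lower in replicate 1 and higher in replicates 3, 4 and 5. Most members with Slc7a11 thus had Rbp4 as well, and the direction for this pair differed among the libraries. As the rule asks for UMIs in several genes, a member without Slc7a11 had to carry others of the 6, and these shares are a description.

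**Figure D2:**
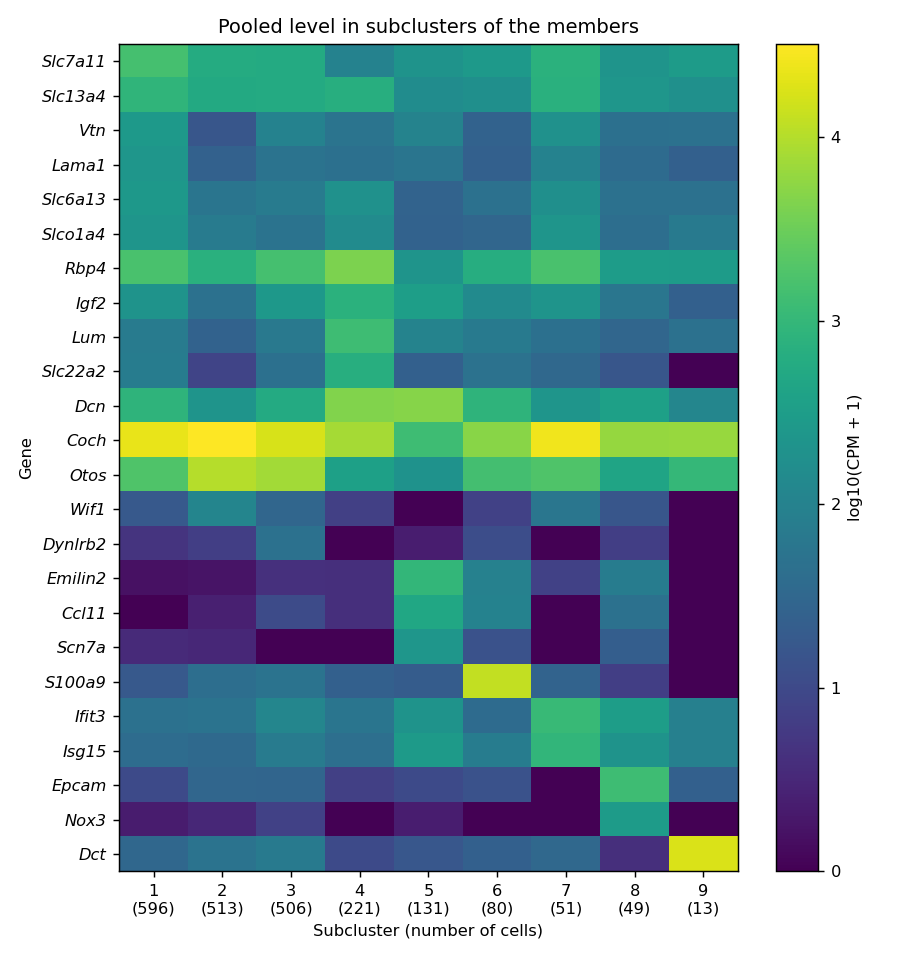
log10 of pooled CPM + 1 (colour) of 24 genes (rows) in the 9 subclusters of members (columns, with the number of cells). Slc7a11, Vtn and Lama1 are brightest in subcluster 1, Rbp4, Igf2, Lum and Slc22a2 in subcluster 4, Ifit3 and Isg15 in subcluster 7.

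Subcluster 2 (513 cells) was led by Neurog2, Wif1 and Otos. Otos, otospiralin, a fibrocyte protein, had 5856, 10145, 12095 and 10013 CPM there, and Coch had 29774 to 33139 CPM, the highest of subclusters 1 to 5. Wif1, a Wnt inhibitor gene, had 209, 108, 84.8 and 84.2 CPM, and Col11a2 had 246 to 378 CPM. Slc7a11 remained at 306 to 646 CPM, between the values of subclusters 1 and 4. Igf2 was at 8.04 to 76.3 CPM, below every library of subcluster 4.

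Subcluster 5 (131 cells) stood apart from these. It was led by Emilin2, Mfap5 and Met, and held Ccl11 (eotaxin) at 559, 487, 211 and 605 CPM and Scn7a at 221, 252, 294 and 184 CPM. Dcn was high at 3650 to 6195 CPM, but Coch had 519 to 2827 CPM, Ptgds 16365 to 30672 CPM and Ucma 54.0 to 477 CPM, each below all libraries of subclusters 1, 2 and 4. At resolution 1, 99.2% of it fell in 1 match of 130 cells. These cells met the rule, but the abundant genes of the other members were low in them.

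Subcluster 3 (506 cells) had the lowest median depth of all 9, 1510.5 UMIs, and the highest median mitochondrial share, 10.3%. Its leading genes Dynlrb2 and Cfap126 belong to motile cilia, Nefm to neurons and Xirp2 to HCs. Their pooled levels were low, 46.2 CPM for Dynlrb2 and 41.9 CPM for Xirp2, while Slc7a11 (414 to 996 CPM) and Rbp4 (1459 to 2018 CPM) were at means of 635 and 1661 CPM, close to those over all members. Subcluster 6 (80 cells) was led by the granulocyte genes S100a9 and S100a8 with Ttr and Hbb-bt, subcluster 8 (49 cells) by the epithelial genes Vmo1, Epcam and Crhbp, and subcluster 9 (13 cells) by the melanocyte genes Dct, Syt4 and Gpnmb. Subclusters 6 and 8 had the highest median depths, 3722.5 and 3757 UMIs. Droplets with more than 1 cell were not removed, and their part in these subclusters was not tested.

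Subcluster 7 (51 cells) was led by genes induced by interferon. Isg15, a ubiquitin-like protein gene, had 1166, 807, 935 and 1187 CPM there and Ifit3, an RNA-binding antiviral gene, 1086, 1353, 607 and 527 CPM in replicates 1, 3, 4 and 5. In subcluster 1, Isg15 was at 24.9 to 50.4 CPM and Ifit3 at 31.1 to 54.6 CPM. Bst2, tetherin, had 2293, 708, 1492 and 1187 CPM in subcluster 7 and 122 to 193 CPM in subcluster 1. Subcluster 7 had Slc7a11 at 683 to 1450 CPM and Coch at 15068 to 30650 CPM. The cells came from all 4 libraries, 8, 27, 13 and 3 of them, so the value of replicate 5 rests on 3 cells. At resolution 1 they lay within a match of 157 cells, of which they were 32.5%.

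The promoters of 3 of its leading genes are shown because these genes were high together in 1 group of cells. Capitals mark a core of the interferon-stimulated response element, GAAA followed by any 2 bases and GAAA again, searched on both strands, and the sequences are those of RefSeq on GRCm38.p6 from 250 bases before to 50 after the start. Ifit3 is at chr19:34583279-34583578 (plus strand), Ifit1 at chr19:34640639-34640938 (plus strand) and Isg15 at chr4:156200769-156201068 (minus strand).
Ifit3: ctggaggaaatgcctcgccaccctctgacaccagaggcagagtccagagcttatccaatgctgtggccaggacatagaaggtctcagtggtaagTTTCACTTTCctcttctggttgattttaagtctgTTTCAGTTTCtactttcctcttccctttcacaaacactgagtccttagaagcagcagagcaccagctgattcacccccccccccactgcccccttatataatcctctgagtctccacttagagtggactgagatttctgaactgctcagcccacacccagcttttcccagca
Ifit1: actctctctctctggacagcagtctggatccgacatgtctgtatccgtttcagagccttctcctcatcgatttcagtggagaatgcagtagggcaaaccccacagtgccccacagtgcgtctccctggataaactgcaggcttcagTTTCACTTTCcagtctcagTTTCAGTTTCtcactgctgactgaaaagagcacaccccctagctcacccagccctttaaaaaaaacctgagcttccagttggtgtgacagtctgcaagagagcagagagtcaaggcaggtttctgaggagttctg
Isg15: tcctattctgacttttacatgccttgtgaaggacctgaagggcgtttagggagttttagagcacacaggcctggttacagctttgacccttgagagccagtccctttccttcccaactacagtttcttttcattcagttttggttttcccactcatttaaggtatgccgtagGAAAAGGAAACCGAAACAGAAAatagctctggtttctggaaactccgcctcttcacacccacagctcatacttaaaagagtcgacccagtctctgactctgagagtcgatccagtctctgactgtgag
Ifit3 and Ifit1 each held 2 separate matches on the reverse strand, and Isg15 held 3 on the forward strand that overlap. Of the 10 leading genes of subcluster 7, 6 had a promoter in the table and all 6 held the motif, which was in 1131 of 32851 promoters (3.44%). As the motif was searched for in genes known to be induced by interferon, this count is a description. Ifit3 and Ifit3b are close paralogs with 2 reverse matches each in similar promoters, so they are not separate cases. Their reads may have been split between them.

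The subclusters took different shares of the members in the 4 libraries. Subcluster 1 held 31.8%, 21.5%, 37.7% and 30.5% of the members of replicates 1, 3, 4 and 5. Subcluster 3 held 13.2%, 31.0%, 11.5% and 20.9%, with its largest share in replicate 3, where the members' mitochondrial share was highest as well. Subcluster 4 held 9.93%, 6.43%, 16.0% and 14.3%. Replicates 1, 3, 4 and 5 had 5.30%, 2.35%, 2.42% and 0.935% in subcluster 7. The part of cell quality in these shares was not tested.

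**Figure D3:**
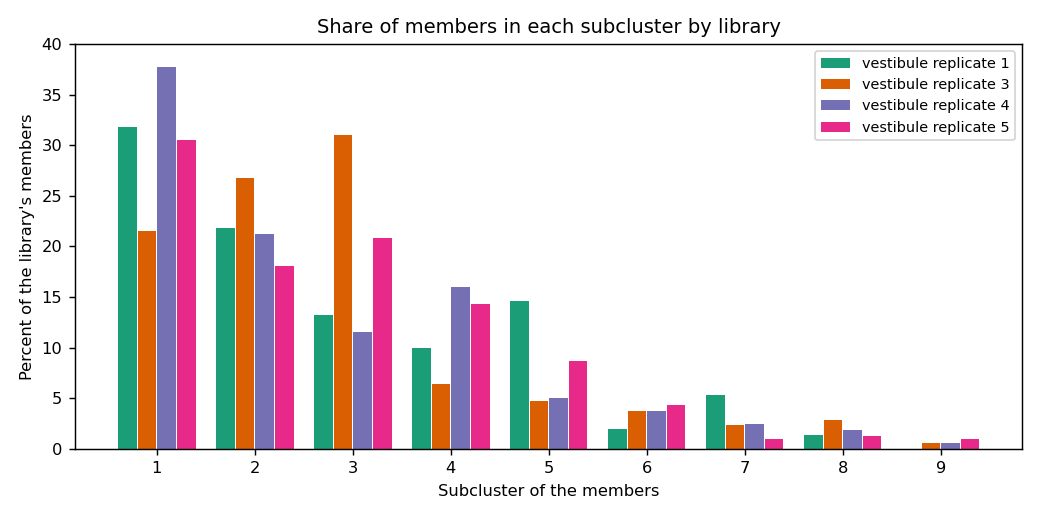
Percent of each vestibular library's members (y axis, bars from 0) in the 9 subclusters (x axis), with 1 bar per library and no error bars. In replicate 3 subcluster 3 is the tallest bar at 31.0%, and in replicate 4 subcluster 1 at 37.7%.

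For genes outside the rule, the cochlea gave the only comparison across libraries that the rule did not use. The same rule was met by 33, 574, 103 and 180 cochlear cells in replicates 1, 3, 4 and 5, 890 in all, or 5.78%, 11.3%, 14.8% and 19.2% of the cells. With each cell thinned to 1000 UMIs before the rule was applied, the shares were 8.88%, 12.5%, 13.7% and 10.6% in the vestibule and 2.10%, 4.22%, 3.45% and 5.88% in the cochlea. The organs did not overlap after thinning, whereas cochlea replicate 5 lay within the range of the vestibule before it. As the rule was chosen on vestibular cells, these shares are a description and no test of a difference between the organs.

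Cells of the 2 organs met the rule through different genes. In the cochlea 90.9% to 98.1% of them had a UMI of Colec12 and 89.4% to 97.0% of Aebp1, but at most 7.14% had Rbp4. At least 1 of Slc7a11, Rbp4 and Slc13a4 was found in 42.4% to 55.8% of cochlear and 96.6% to 99.3% of vestibular cells that met the rule. The fibrocyte class was met by 34.8% of the 890 cochlear cells and the endothelial class by 4.27% (38 cells), against 73.7% and 0.694% (15 cells) of the members. The organ contrast therefore compares different mixtures of cells, and organ and cell makeup cannot be told apart in it. In bulk sums like these, fewer cells of a type and less RNA per cell cannot be told apart either.

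UMIs of these cells were summed per library and the organs compared with edgeR's quasi-likelihood test, 4 libraries against 4, leaving out the 12 genes of the rule. Of 9495 genes tested, 1518 (16.0%) passed an adjusted p of 0.05, 779 higher (8.20%) and 739 lower (7.78%) in the vestibule. The libraries of the organs did not overlap for 538 of the higher and 657 of the lower genes. Cochlea replicate 1 had only 33 such cells, of which the 10 with 4 or more of the 6 genes had a median of 21480.5 UMIs. Without it, 1071 genes were higher and 1002 lower. Scaling by total counts alone moved the median of all genes by -0.21 on the log2 scale and gave 548 higher and 1216 lower genes, so that shares of higher and lower calls depend on the scaling, while Ptgds held 12.3% to 14.3% of the UMIs in the vestibule.

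The 24 genes named next had the largest differences, 12 in each direction, among those past the threshold whose libraries did not overlap, with a mean of at least 50 CPM in the higher organ and a level in its other cells of at most 4 times that. Highest in the vestibule was Ucma, a matrix protein gene of cartilage, with 3220, 2970, 2652 and 2109 CPM in replicates 1, 3, 4 and 5 of the vestibule and 0, 21.8, 0 and 0 CPM in the cochlea. Its log2 fold change was 8.48 ± 0.83 (SE, adjusted p = 5.67e-06). It was found across subclusters 1 to 4, at means of 3552, 4635, 3588 and 1413 CPM, and at 146 CPM in the macrophage class. Ucma was thus no private gene of 1 subcluster.

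Spink8, a protease inhibitor gene, had 454, 339, 346 and 357 CPM in the vestibule and 9 UMIs in all 4 cochlear libraries, a log2 fold change of 8.21 ± 0.39 (adjusted p = 1.13e-08). Etnppl, a phospholipid enzyme gene, had 51.5 to 126 CPM against 4 UMIs. Sox8, a SoxE transcription factor gene, had 161 to 222 CPM against 0 to 3.97 CPM (log2 fold change 6.46 ± 0.37). For these 3 genes the cochlear libraries were at or near 0.

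Lama1 had 113, 75.5, 119 and 87.7 CPM in the vestibule and 7.95, 3.00, 0 and 0 CPM in the cochlea (log2 fold change 5.75 ± 0.44, adjusted p = 7.87e-07). Cacna1e, the R-type calcium channel alpha subunit, had 312 to 393 against 2.23 to 9.82 CPM (5.80 ± 0.33). The signalling genes Sphkap and Rapgef5 differed by 5.35 and 5.18 on the log2 scale. Among carriers, Slc13a3 had 91.5 to 164 against 0 to 6.28 CPM (5.03 ± 0.35), and Slc7a8, a neutral amino acid exchanger gene, 209 to 287 against 0 to 15.6 CPM (4.77 ± 0.36). Srgn, the granule proteoglycan serglycin, and Cd79a are known from blood cells, and they differed by 5.15 ± 0.63 and 4.93 ± 0.38. Of the granulocyte markers Retnlg was higher in the vestibule (3.65 ± 1.11), and S100a8 and S100a9, at 77.9 to 1048 and 148 to 1520 CPM against 0 to 348 and 0 to 401 CPM, did not pass the test (adjusted p = 0.128 and 0.0945). Nor did the macrophage markers Csf1r and C1qa (adjusted p = 0.652 and 0.756). The part of blood cell RNA in these differences was not tested.

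Foxf2, a forkhead factor gene of neural crest mesenchyme, had no UMI in 6350789 UMIs of the members and 71.5, 72.3, 94.6 and 56.5 CPM in cochlea replicates 1, 3, 4 and 5. Against a floor of 3 UMIs over all members it was at least 158-fold lower in the vestibule. Rarres1, a retinoic acid induced gene, had 2 UMIs in the members and 686 in the cochlear cells, Lypd1 1 and 412, and Plpp4 1 and 381. Nkx6-1, a homeobox gene, had 4 and 573. These 5 genes were at or near 0 in every vestibular library.

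Cdh6, a cadherin gene, had 3.32, 2.67, 2.27 and 0.953 CPM in the vestibule and 191, 193, 155 and 171 CPM in the cochlea, a log2 fold change of -5.97 ± 0.26 (adjusted p = 1.13e-08). Emcn, endomucin, was the most abundant of the lower genes, with 15.1 to 33.2 against 1148 to 1914 CPM (-5.90 ± 0.34). Emcn is best known from endothelium, as is Cdh5, which had 41.2 ± 9.82 and 38.1 ± 15.9 CPM (SD, n = 4 libraries). Cdh5 did not pass the edgeR test (adjusted p = 0.419). Its mean in the other cells was 3.74 CPM in the vestibule and 6.5 CPM in the cochlea, below the cells that met the rule in both organs. Flt1, also of endothelium, was lower in the vestibule (-1.73 ± 0.23). The endothelial markers summed to 77.1 to 118 CPM in the vestibular and 1279 to 2041 CPM in the cochlear cells. Emcn is one of these markers and made up most of the cochlear sum, so the sum adds little to the value of Emcn. The part of endothelial RNA in the lower genes was not tested. Abcc9 and Kcnj8, the subunits of a potassium channel of mural cells, were both lower, by 5.32 and 4.63 on the log2 scale. Gper1, Fndc1, Kcnb2 and Cntn1 differed by -5.62, -5.13, -5.06 and -4.90. All 24 genes kept their direction and their call under each alternative in which they could be tested.

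**Figure D4:**
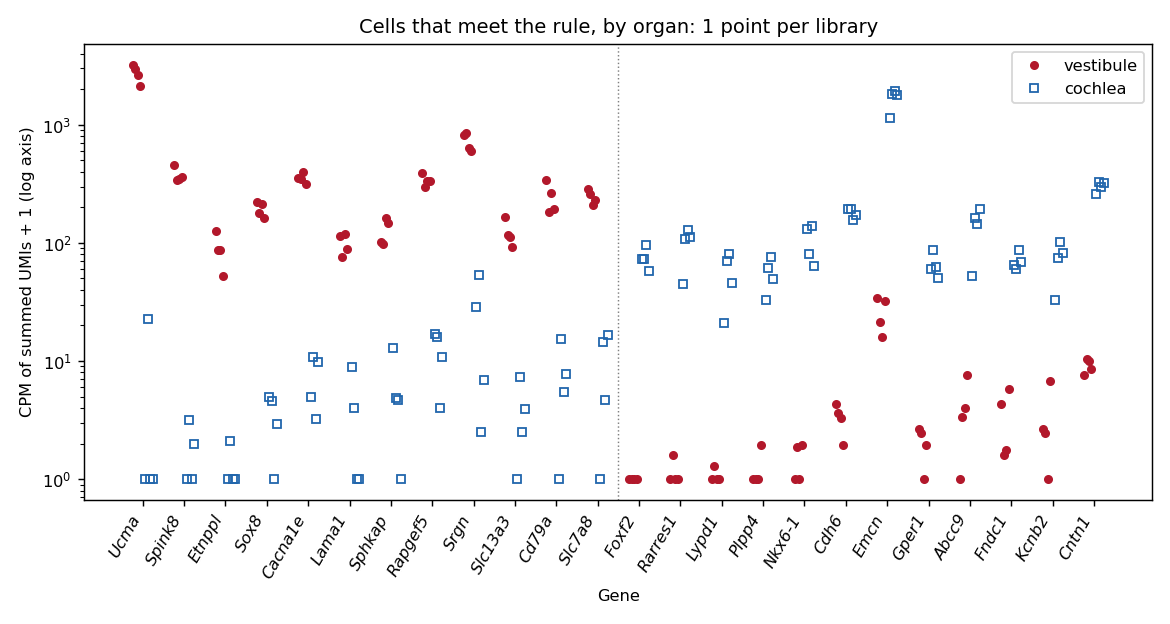
CPM + 1 (log axis) of the 24 named genes in cells that met the rule, with 1 point per library (vestibule filled, cochlea open, 4 libraries each) and no error bars. The 12 genes left of the dotted line are higher in the vestibule and the 12 on the right lower, with no overlap, and Foxf2 sits at 0 CPM in all 4 vestibular libraries.

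Pathway genes were then read from pathway lists beside the background of 8.20% higher and 7.78% lower. The lists were chosen with earlier results of these data known, so their counts are a description and no test of a pathway. Of 15 listed transporters of meningeal and barrier fibroblasts 9 were tested, and 5 of these were higher and none lower in the vestibule (median log2 fold change 1.37). Slc13a3 and Slc6a13 (3.15 ± 0.51, adjusted p = 4.41e-04) led, followed by Slc1a3, a glutamate transporter gene, with 1591, 1546, 1402 and 1652 CPM against 652, 658, 406 and 742 CPM (1.56 ± 0.24). Slc20a2 was higher by 1.49. Slc2a1 was the fifth, with overlapping libraries, and lost its call in 12 of 19 alternatives. Slc47a1, the barrier fibroblast marker on the same list, was not tested and went the other way. It had 4 UMIs in the members and 90 in the cochlear cells.

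Of 30 mesenchymal transcription factor genes, 6 were higher and 14 lower (median -0.68). The higher ones included members of the Zic family. Zic1 had 191, 137, 112 and 113 CPM in the vestibule and 3.97, 14.2, 2.98 and 3.90 CPM in the cochlea (4.21 ± 0.36, adjusted p = 1.80e-06). Zic4 differed by 4.68 ± 0.42. Zic2 was not called. Beside Foxf2, the lower genes included Ebf2 (8.32 to 33.2 against 78.9 to 131 CPM, -2.64 ± 0.31), Foxc2 (-1.54 ± 0.32) and Klf4 (-1.63 ± 0.36).

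Wnt genes differed both ways, with 5 higher and 7 lower of 16 tested (median -0.33). The higher ones were ligands and secreted inhibitors. Wnt5a, a ligand of the noncanonical pathway, had 1028, 834, 813 and 909 CPM against 548, 211, 156 and 265 CPM (1.88 ± 0.31, adjusted p = 5.16e-04). The secreted inhibitors Frzb and Sfrp4 differed by 3.66 ± 0.30 and 2.11 ± 0.28. Among the lower were the receptor Fzd1 (-3.57 ± 0.26), the transcription factor Lef1 (-2.22 ± 0.26) and the ligand enhancer Rspo1 (-1.87 ± 0.31). The pathway targets Axin2, Nkd1, Notum and Apcdd1 were lower by 0.75 to 1.83 on the log2 scale, and each lost its call under at least 1 alternative.

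Of 17 genes of bone morphogenetic protein (BMP) and TGF-beta signalling, 4 were higher and 8 lower (median -0.85). The ligand genes Bmp7 (3.19 ± 0.29) and Bmp6 (2.77 ± 0.42) were higher, and Bmp4 was lower at 53.7 to 92.8 against 151 to 194 CPM (-1.13 ± 0.20). The BMP targets Id1, Id2 and Id3 were lower. Id2 had 21.6, 23.1, 15.9 and 5.72 CPM in the vestibule and 477, 275, 350 and 245 CPM in the cochlea (-4.04 ± 0.33, adjusted p = 1.13e-06), and Id1 and Id3 differed by -3.13 and -1.19.

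**Figure D5:**
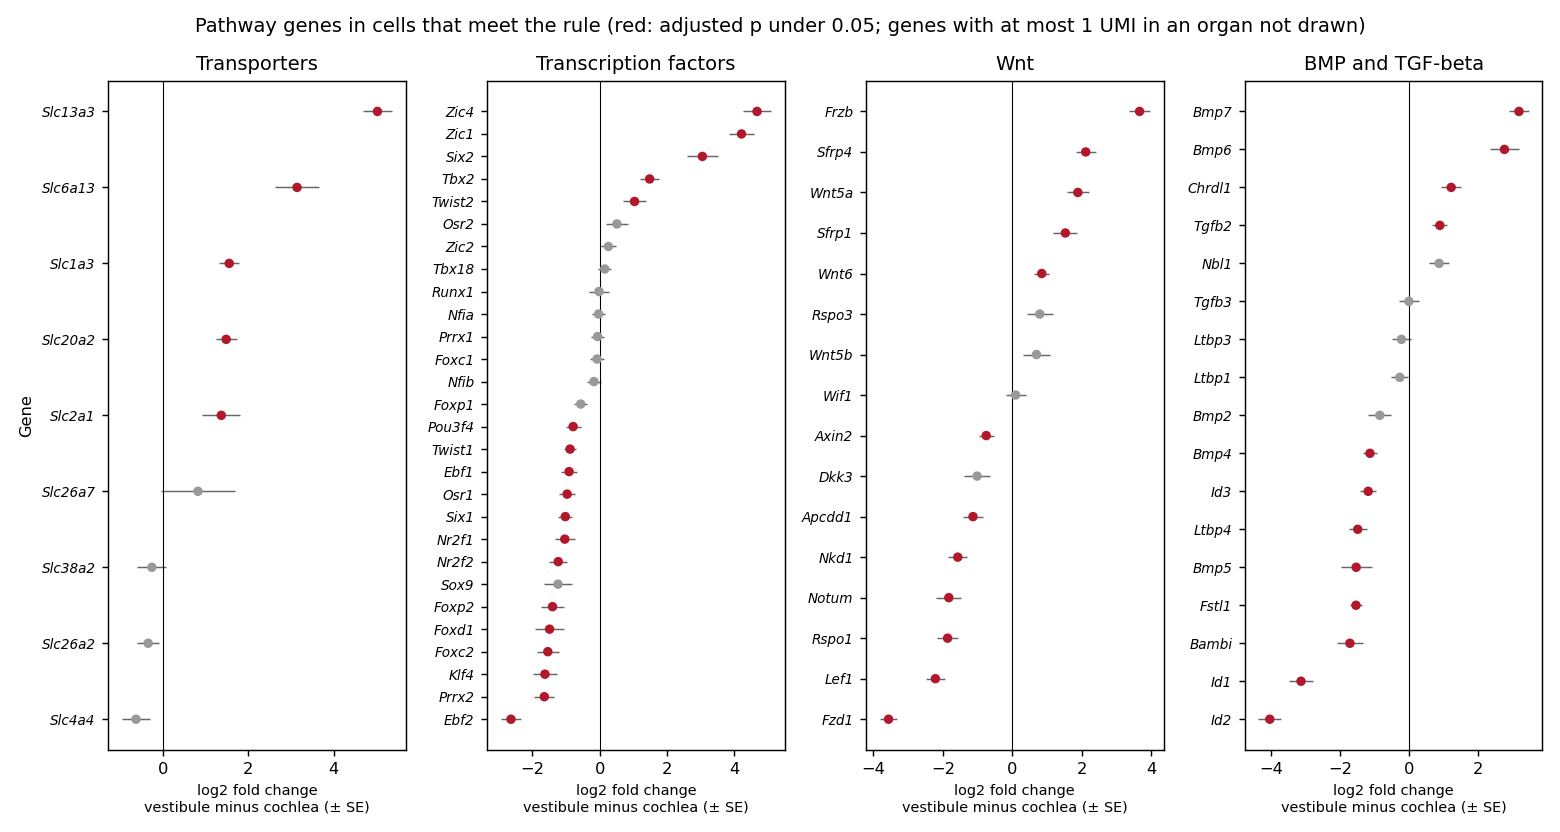
log2 fold change, vestibule minus cochlea, with its SE (bars) for tested genes of 4 lists, red where the adjusted p was under 0.05. Slc13a3, Zic4, Zic1, Frzb and Bmp7 lie far right, at 5.03, 4.68, 4.21, 3.66 and 3.19, and Id2 and Fzd1 far left, at -4.04 and -3.57. Genes with at most 1 UMI in an organ are not drawn.

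Insulin-like growth factors split by ligand. Igf1 was lower, with 59.7, 38.2, 15.9 and 34.3 CPM against 254, 227, 198 and 210 CPM (-2.41 ± 0.27, adjusted p = 1.93e-05). Igf2 was higher by 1.20 ± 0.29 (adjusted p = 0.00896), with overlapping libraries, and its call was lost when the rule was applied to thinned cells (0.49, adjusted p = 0.311) or cells of other marker classes were left out (0.82, adjusted p = 0.081). Of 9 genes of this list 1 was higher and 2 lower.

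In the cystine and glutathione list 3 genes were higher and 1 lower of 18. Slc3a2 had 152 to 243 against 41.9 to 76.9 CPM (1.90 ± 0.23, adjusted p = 3.16e-05). The peroxidase Gpx3 was higher by 2.95 ± 0.41 and the quinone reductase Nqo1 by 2.63 ± 0.29. Gclc, the catalytic subunit of the first step of glutathione synthesis, was lower at 4.97 to 11.6 against 43.7 to 99.3 CPM (-2.36 ± 0.29). Slc7a11 itself was not tested, as a gene of the rule, and had 507 to 727 CPM in the vestibule and a mean of 132 CPM in the cochlear cells.

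Retinoid genes gave 2 higher and 3 lower of 12. Aldh1a2 was higher by 1.81 ± 0.27 and Crabp2, a cytosolic retinoic acid carrier gene, by 1.49 ± 0.30, and the receptors Rarb, Rara and Rxra were lower by 1.41, 1.04 and 0.99. Each of these 5 calls was lost under at least 1 alternative. Rbp4, of the rule, had a mean of 1373 CPM in the vestibule and 10.2 CPM in the cochlear cells.

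Matrix genes differed in both directions, 4 of 17 collagen genes higher and 4 lower, and 5 of 32 other matrix genes higher and 8 lower. Of the 4 higher collagen genes, Col12a1 and Col11a1 had overlapping libraries and lost their call in 12 of 19 and 10 of 20 alternatives. Col15a1, a basement membrane zone collagen gene, was higher at 62.0 to 87.8 against 2.98 to 15.9 CPM (3.39 ± 0.28), and Col9a2 by 3.30 ± 0.25. Lum was higher by 2.34 ± 0.37, with means of 185 CPM in the members and 39.0 CPM in the cochlear cells that met the rule. In the other cochlear cells Lum had a mean of 202 CPM, so it was not low in the cochlea as a whole. Fn1, fibronectin, was near 0 in the vestibule (0 to 13.9 CPM) and 79.5 to 380 CPM in the cochlea (-4.84 ± 0.59), and the fibulin gene Efemp1 differed by -2.90 ± 0.33. Lox, the collagen cross-linking enzyme, was lower by 1.93.

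Of 11 lipid, iron and copper handling genes, 4 were higher and 1 lower, and 1 of the 4, Apoe, lost its call in 9 of 20 alternatives. Ptgds had 6218, 12964.4, 3967 and 10235.3 CPM in the cochlea, so it differed by 4.19 ± 0.53 (adjusted p = 5.30e-05), and Lpl, lipoprotein lipase, differed by 3.34 ± 0.32. Among ion transport and adhesion genes, 5 of 20 were higher and 8 lower. Atp1b1, a beta subunit of the sodium pump, was lower by 2.85 ± 0.46. Gja1, connexin 43, was higher by 2.65 ± 0.54. Of 14 growth factor genes 2 were higher and 4 lower, with the axon guidance ligand Slit2 at 3.38 ± 0.42 and the receptors Fgfr2 and Ednra at -2.18 ± 0.20 and -3.14 ± 0.39.

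Genes induced by stress during dissociation differed with the organ. Of 14 immediate early and stress genes, 9 were lower in the vestibule and none higher. Junb had 63.0, 35.6, 60.5 and 102 CPM in the vestibule and 219, 334, 1667 and 337 CPM in the cochlea (-3.14 ± 0.59), highest in cochlea replicate 4, and Fosb and Dusp1 differed by -3.03 and -2.32. The part of tissue handling in the organ contrast was not tested. Of 16 complement, chemokine and interferon genes 5 were higher and none lower, led by Cxcl14 (2.95 ± 0.36). Among 9 genes of cell cycle arrest and senescence, 2 were higher and 2 lower. Gadd45g was lower by 4.14 ± 0.48, and Cdkn1a had 61.8 ± 19.4 and 58.5 ± 15.1 CPM (SD, n = 4) and did not pass the test.

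Markers of other cell types in the same contrast bear on these values. Of the fibrocyte markers, Coch (2.39 ± 0.34), Otos (3.71 ± 0.50) and Car3 (2.51 ± 0.36) were higher in the vestibule and Slc4a11 lower (-2.11 ± 0.51). Epcam (1.98 ± 0.52), the melanocyte and glial factor Sox10 (1.60 ± 0.34) and the granulocyte gene Retnlg (3.65 ± 1.11) were higher as well, with overlapping libraries for these 3 and for Slc4a11, and Flt1, of endothelium, lower (-1.73 ± 0.23). When cells of any other marker class were left out, fibrocytes included, 541 members and 546 cochlear cells remained and 214 genes were higher and 191 lower of 4981 tested. With the fibrocyte class kept, the counts were 778 and 808. Nothing in the labels says that the mice of the replicates came from separate litters, and p-values measure the spread between these pooled libraries.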

How the data were processed

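Cochlear and vestibular cells of old mice were sequenced as droplet 3′ libraries. The deposited matrices hold UMI counts per gene and barcode, which the authors made with CellRanger (per the file headers, version 5.0.1 in replicates 1 and 2, and version 6.1.2 in replicates 3 to 5) on mm10, with no normalization. Members and gene lists were chosen with earlier results of these data known, and the rules for subcluster leading genes after the values were seen. Barcodes with fewer than 200 genes, fewer than 1000 UMIs or 25% or more mitochondrial UMIs were left out. Doublets were not removed and no caller was run. Clusters came from scanpy 1.11.5 (resolution 1 for all vestibular cells, 0.5 for members). Counts were summed per library and compared between organs with edgeR 4.0.16 (R 4.3.3, quasi-likelihood test, TMM, filterByExpr, Benjamini-Hochberg threshold 0.05). DESeq2 1.42.0 was an alternative. On simulated counts for this comparison (9495 genes), 86.6% of 194 genes changed by 2 on the log2 scale were called, and 5.09% of calls were unchanged genes. The simulated libraries were independent and had no differing cell mixtures. Their dispersion, the spread beyond sampling noise, was set above the fitted common value of 0.0475. These rates hold for that setting only.

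The genes named were those of the rule and Igf2, the 25 with the highest lowest ratio over libraries, the 12 per direction with the largest organ difference, and, per pathway list, those past the threshold with the highest level or largest change. Other genes were added after their values were seen. Deviations from the group means of same-numbered libraries correlated at 0.206, 0.178, 0.149 and 0.171 for replicates 1, 3, 4 and 5, each over 0.1, so the numbers were taken to pair the samples. The values in the text come from the fit without this pairing, and the fit with it was an alternative. Coordinates are those of GENCODE on GRCm38. Replicate 2 was counted with replicate 1. P-values measure the spread between libraries of pooled mice.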

Additional observations from a re-analysis of the deposited data

Results flagged for a closer look

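Among 83 groups of 4 libraries, 6 had a library whose gap to its nearest neighbour exceeded the critical value of Dixon's test at the 95% level, which chance does in about 1 of 20 groups. Spink8 in the vestibule had 454 CPM in the highest library against 339, 346 and 357 CPM, a gap of 0.842 of the range. In each of the other 5 the gap was 1, because the other 3 libraries were at 0. These were Ucma (21.8 CPM) and Etnppl (1.09 CPM) in the cochlea, and Rarres1 (0.593 CPM), Lypd1 (0.296 CPM) and Plpp4 (0.953 CPM) in the vestibule.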

How the results depend on the processing

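The number of members, 2160, was 1387 with at least 4 of the 6 genes, 1053 with at least 2000 UMIs and under 10% mitochondrial UMIs, 541 without cells of any other marker class and 1267 when the rule was applied to cells thinned to 1000 UMIs, the last an alternative chosen after seeing the data. Among the levels of the members, the mean of Slc7a11, 630 CPM, was 820.01 CPM with at least 4 of the 6 genes and 1058 CPM after thinning, and 598 to 671 CPM with 1 replicate left out. All 7 levels, those of the 6 genes and Igf2, moved by more than 1 SD between replicates after thinning, 5 of 7 without other marker classes and 3 of 7 with at least 4 genes. The organ difference had 214 higher and 191 lower genes without other marker classes and 381 and 402 after thinning, with fewer genes tested (4981 and 4654). It had 1216 lower genes with scaling by total counts only and 1265 higher genes with no filter on low counts. Leaving out 1 library gave 586 to 1071 higher and 577 to 1002 lower genes, most without cochlea replicate 1. DESeq2 called 695 higher and 727 lower.

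With the replicate block, 936 genes were higher and 890 lower, and of the named genes Twist2, Itgbl1 and Jun, which are in the counts of their lists, lost their call. The 24 genes named for size kept direction and call in the alternatives that tested them. Of 122 list genes, 67 kept theirs and 55 lost the call under at least 1. Ntrk2, 1.03 on the log2 scale, was -0.0717 after thinning; the cause was not tested. Depth limits the rule, as a gene with few UMIs can be missed in a cell that expresses it.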

Other observations

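Hemoglobin beta, Hbb-bs, which red blood cells make, had 49.7, 2864, 9561 and 2524 CPM in the members of replicates 1, 3, 4 and 5 and a mean of 40029 CPM in the other vestibular cells. The vestibular libraries thus differed in this gene more than in any gene of the rule. Igf2 was found in 22.7%, 24.4%, 27.9% and 23.5% of members with a Slc7a11 UMI and in 27.0%, 28.4%, 31.6% and 42.6% of those without, lower with Slc7a11 in each of the 4 libraries.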
